A study of Mus musculus with 2 samples.

Results

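The 42 genes described here are the antiviral effectors that interferon induces in mouse cells, listed by symbol in the GENCODE M21 annotation under a rule that uses no measured value. They are 42 of the 55536 genes in the large gene table of each library. The list was drawn up with earlier results of these data known. The polyadenylated transcripts sequenced came from regulatory T cells labelled inflammation-experienced, primary cells that derived from activated regulatory T cells of male mice aged 7 weeks. One biosample, a single biological replicate, was sequenced as 2 technical libraries, called library 2 and library 1 here. No second condition, no untreated cells and no strain or stimulus are named in the labels, so the only comparison possible was library 2 against library 1. It shows how far each level varied between the libraries of this biosample, not what inflammation did to it. In bulk RNA, fewer cells of a type and less RNA per cell cannot be told apart.

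Type I and type III interferons are secreted when a cell senses viral nucleic acid, and interferon gamma is secreted by activated T cells and NK cells. Their receptors signal through JAK kinases to STAT transcription factors. A complex of STAT proteins with IRF9 binds the interferon-stimulated response element (ISRE) of target promoters, and STAT dimers bind the gamma-activated site (GAS). The products of the target genes detect viral RNA, degrade it, block its translation, trap virus particles or tag proteins with the ubiquitin-like ISG15. T cells carry receptors for type I interferon and for interferon gamma.

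Library 2 held 22036331 expected counts over all 55536 genes and library 1 held 26593267. The whole-number counts of the small gene table, a second quantification of each library, summed to 6972139 in library 2 and 7911181 in library 1. Where a gene had no count, as many as 3 counts would still be possible, equal to 0.136 CPM (the count scaled to library size) in library 2 and 0.113 in library 1. The T cell label held in the markers: all 9 T cell and regulatory T cell markers were detected, with Foxp3, the transcription factor of regulatory T cells, at 87.39 TPM in library 2 and 87.27 TPM in library 1. TPM is a level per transcript length, scaled to a common sum in each library. An exact binomial test on counts called 4 of the 9 higher in library 1, against 23.9% of all genes tested. It called 1 higher in library 2, against 46.4%. Foxp3 was among the 4, at 1.06-fold higher in library 1 by counts, but was not called in the small table. Other cell types left unequal traces: the 9 macrophage markers summed to 83.4 TPM in library 2 and 7.0 TPM in library 1, and the 6 erythroid markers to 94.7 TPM in library 2 and 8494.2 TPM in library 1. In the small table the erythroid markers summed to 143 counts in library 2 and 1944 in library 1, a smaller gap in the same direction. Hba-a1, for one, was 164-fold higher in library 1 by counts in the large table and 2.97-fold in the small table. The 6 B cell markers summed to 548.1 TPM in library 2 and 601.7 TPM in library 1. An exact binomial test called 5 of them higher in library 1, against 23.9% of all genes tested. The 6 NK cell markers summed to 314.4 TPM in library 2 and 191.6 TPM in library 1. Of them, 4 were called higher in library 2, against 46.4% of all genes tested. Most of the sum came from Nkg7 (233.02 TPM in library 2, 153.31 in library 1) and Klrk1 (72.20 in library 2, 32.14 in library 1). Klrb1c, at 3.75 TPM in library 2 and 4.26 in library 1, was not called. Ncr1, with 5 counts in library 2 and 0 in library 1, was not tested.

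The ISRE was common in the promoters of the members. RefSeq start sites (GRCm38.p6) gave promoter windows of 300 bases, 250 before and 50 after the start, for 29 of the 42 members. The ISRE core was searched on both strands as GAAA, 2 bases of any kind and GAAA. It stood in 15 of the 29 members (51.7%), and in 3.99% of the 27025 genes with a window. By window, 17 of the 35 member windows held it (48.6%), against 3.44% of all 32851. The GAS element, TTC, 3 bases of any kind and GAA, stood in 7 of the 29 members (24.1%) and in 9.55% of all genes. A GAS match overlapped an ISRE core in 1 member, Bst2. A match describes the letters of a window and is not a measured binding site.

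A set of these windows are given 5′ to 3′ on the strand of the gene, with each ISRE core in capitals. Isg15 is shown because its 3 cores overlap in 1 run, which no other member had. Ifit3 and Ifit3b are shown because they are near copies, Rsad2 and Oas1a because they, like Ifit3, differed 2-fold or more between the libraries, and Irgm2 because it held both an ISRE core and a GAS match. Oas1a, Bst2 and Eif2ak2 held both as well. Ifi44, which also differed 2-fold or more, held neither motif in its window and is not shown.
Isg15 (chr4:156200769-156201068, minus strand): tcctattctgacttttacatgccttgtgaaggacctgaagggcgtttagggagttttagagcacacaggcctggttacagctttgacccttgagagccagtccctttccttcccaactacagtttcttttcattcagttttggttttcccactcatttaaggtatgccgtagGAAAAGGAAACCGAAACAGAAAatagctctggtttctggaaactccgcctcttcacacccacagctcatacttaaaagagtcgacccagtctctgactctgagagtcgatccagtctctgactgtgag
Ifit3 (chr19:34583279-34583578, plus strand): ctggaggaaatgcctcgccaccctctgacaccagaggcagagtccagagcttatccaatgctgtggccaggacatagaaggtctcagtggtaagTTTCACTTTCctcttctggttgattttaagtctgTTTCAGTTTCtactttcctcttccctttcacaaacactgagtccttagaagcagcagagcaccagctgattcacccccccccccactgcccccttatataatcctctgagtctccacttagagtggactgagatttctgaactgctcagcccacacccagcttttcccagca
Ifit3b (chr19:34607707-34608006, plus strand): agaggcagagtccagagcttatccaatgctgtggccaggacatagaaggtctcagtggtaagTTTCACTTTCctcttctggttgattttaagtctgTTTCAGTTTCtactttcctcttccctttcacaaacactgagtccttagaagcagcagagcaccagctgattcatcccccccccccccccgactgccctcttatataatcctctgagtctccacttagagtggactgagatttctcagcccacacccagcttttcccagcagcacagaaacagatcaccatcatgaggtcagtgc
Rsad2 (chr12:26456403-26456702, minus strand): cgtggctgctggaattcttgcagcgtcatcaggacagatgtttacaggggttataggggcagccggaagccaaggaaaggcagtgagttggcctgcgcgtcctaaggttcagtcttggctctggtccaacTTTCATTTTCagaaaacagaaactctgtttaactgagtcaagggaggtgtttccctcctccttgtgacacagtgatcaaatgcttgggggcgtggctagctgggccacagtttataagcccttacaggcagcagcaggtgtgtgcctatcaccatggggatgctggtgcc
Oas1a (chr5:120907476-120907775, minus strand): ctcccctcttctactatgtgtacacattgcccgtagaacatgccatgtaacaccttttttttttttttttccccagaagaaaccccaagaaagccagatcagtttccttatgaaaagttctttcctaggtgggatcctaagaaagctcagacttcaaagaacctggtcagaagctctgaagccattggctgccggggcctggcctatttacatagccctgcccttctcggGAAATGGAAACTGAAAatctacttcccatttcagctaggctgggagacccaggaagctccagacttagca
Irgm2 (chr11:58214727-58215026, plus strand): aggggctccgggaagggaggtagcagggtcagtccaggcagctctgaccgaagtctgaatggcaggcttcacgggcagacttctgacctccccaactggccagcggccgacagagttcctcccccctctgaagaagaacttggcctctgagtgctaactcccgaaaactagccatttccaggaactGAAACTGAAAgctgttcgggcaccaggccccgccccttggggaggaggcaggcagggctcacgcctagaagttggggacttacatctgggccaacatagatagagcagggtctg
In Ifit3, Ifit3b and Rsad2 the core lies on the opposite strand, so the capitals read TTTC, 2 bases and TTTC. Counted from the start site, the Ifit3 cores began at positions -156 and -122, and the Ifit3b cores at positions -188 and -154. The Ifit3 and Ifit3b windows were identical at 94.5% of 274 aligned columns. Of the 15 members with a core, 6 held several: Isg15, Oas1a, Ifit1, Ifit3, Ifit3b and Bst2. The GAS match of Irgm2 ended at position -67 and its ISRE core began at position -64.

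**Figure D1:**
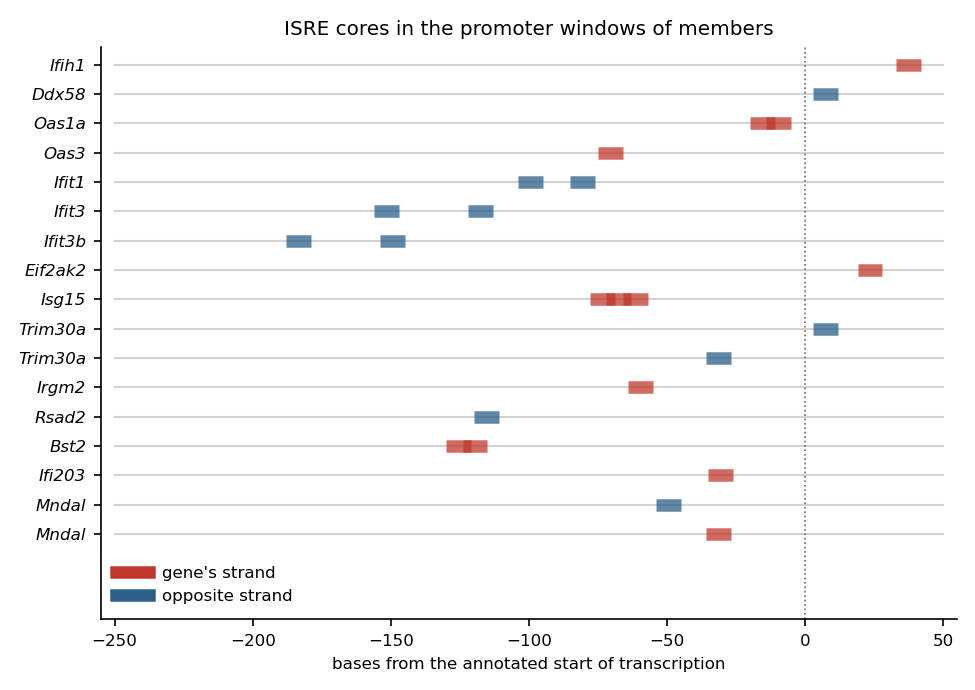
ISRE cores in the promoter windows of members that held one (17 windows of 15 members). The x axis gives bases from the annotated start of transcription, bars are cores on the gene's strand (red) or the opposite strand (blue), and darker stretches are overlaps. Most cores lie upstream of the start, and those of Ifih1, Ddx58, Eif2ak2 and 1 window of Trim30a lie just downstream.

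Nearly all members were transcribed in both libraries, and most were moderately abundant. A TPM of 1 or more in both libraries, called detected here, was reached by 40 of the 42 members (95.2%), compared with 24.7% of all 55536 genes and 49.1% of the protein-coding genes. Ifi204 and Ifi44 did not reach it. The median TPM over the 42 members was 36.0 in library 2 and 27.0 in library 1, and their summed TPM was 2916 in library 2 and 3067 in library 1. They held 0.283% of the counts of library 2 (95% Wilson interval 0.281 to 0.286) and 0.297% of those of library 1 (0.295 to 0.299). Averaged over both libraries, the detected members had a median TPM of 36.7, against 29.95 for detected protein-coding genes and 21.32 for all detected genes. The mean TPM was 50 or more for 17 members, 100 or more for 8 and 200 or more for 5.

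A few genes dominated the sum. Ifi27l2a, Ifi47, Ifi27 and Mndal held 46.4% of the TPM of the 42 members. Ifi27l2a, a small hydrophobic protein, was the most abundant, at 409.68 TPM in library 2 and 474.09 TPM in library 1, above 97.8% of detected genes. Ifi47, an immunity-related GTPase, followed with 345.96 TPM in library 2 and 404.60 in library 1.

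**Figure D2:**
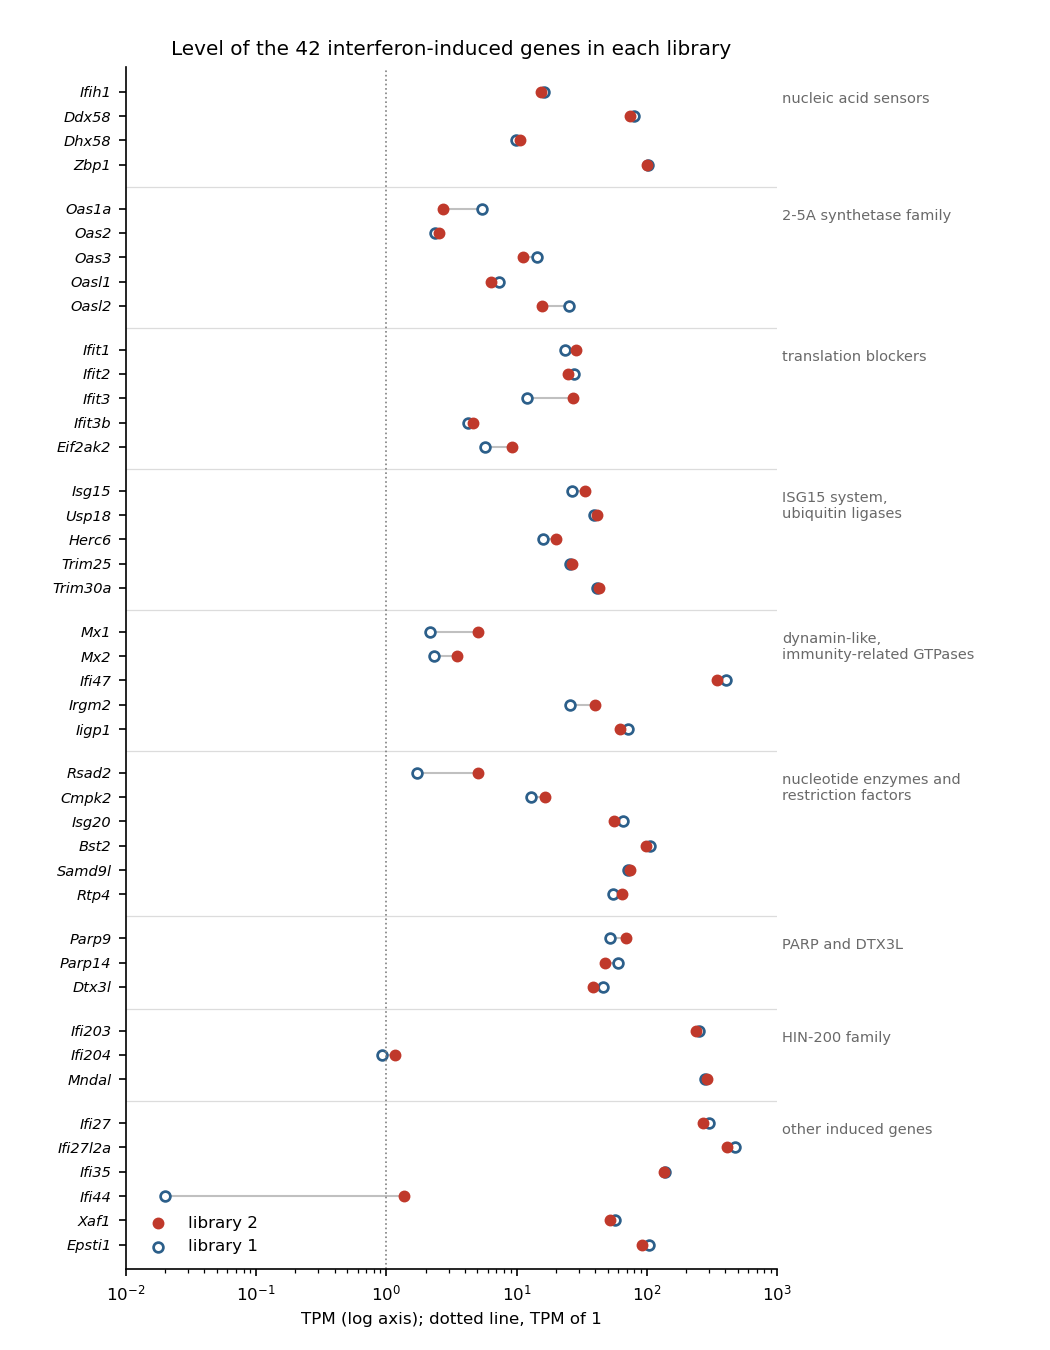
TPM of each of the 42 members (log axis) in library 2 (filled red) and library 1 (open blue), grouped by role, with a dotted line at a TPM of 1. Paired points lie close together for most members; Ifi44 has the widest gap, at 1.37 TPM in library 2 and 0.02 TPM in library 1.

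Count ratios were taken as library 2 over library 1, on expected counts with 0.5 added and divided by the library total, and their intervals are exact 95% binomial intervals that cover counting error only. In all, 3 members were 2-fold or more higher in library 2, Ifi44, Ifit3 and Rsad2, which is 7.14% of the 42; of the 24253 genes with 10 or more counts summed, 33.0% were. Only Oas1a was 2-fold or more higher in library 1 (2.38% of the members, against 9.43% of all genes). Among genes with 100 or more counts, 2 of 40 members were 2-fold or more higher in library 2 (5.0%), against 9.04% of 12609 genes, and 1 in library 1 (2.50%), against 5.04%. The ratio of 34 of the 42 members (81.0%) was under 1.5-fold in either direction, against 46.3% of all genes tested and 73.7% of those with 100 or more counts. The median absolute log2 ratio of the members was 0.21, against 0.69 for all genes tested. With 100 or more counts it was 0.20 for the members and 0.28 for all genes. The signed median log2 ratio was -0.03 for the members and 0.23 for all genes. With 100 or more counts it was -0.04 for the members and 0.01 for all genes.

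A 2-sided exact binomial test with Benjamini-Hochberg adjustment over all genes tested compared the libraries, not conditions. At an adjusted p under 0.05 it called 13 members higher in library 2 (31.0%, against 46.4% of all genes) and 14 higher in library 1 (33.3%, against 23.9%). The remaining 15 were not called. Both kinds of scaling that allow for composition moved this split, with TMM to 8 higher in library 2 (against 41.1% of all genes tested) and 19 higher in library 1 (against 29.4%), and under DESeq2 size factors to 7 higher in library 2 (against 39.0% of all genes tested) and 23 higher in library 1 (against 32.1%). The small gene table gave 8 higher in library 2 (against 32.2% of the 14432 genes it could test) and 7 higher in library 1 (against 22.1%). DESeq2 size factors lowered every log2 ratio by 0.145, and TMM factors by 0.097. In the small gene table the same 3 members were 2-fold or more higher in library 2 (18.2% of the 14039 genes tested in both tables were), and Oas1a and Oasl2 were so in library 1 (7.55% of genes). The sign of the ratio was the same in both tables for 38 members and turned for 4, Ifih1, Ifi47, Ifi27l2a and Ifi35, whose log2 ratios were at most 0.24 in size.

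**Figure D3:**
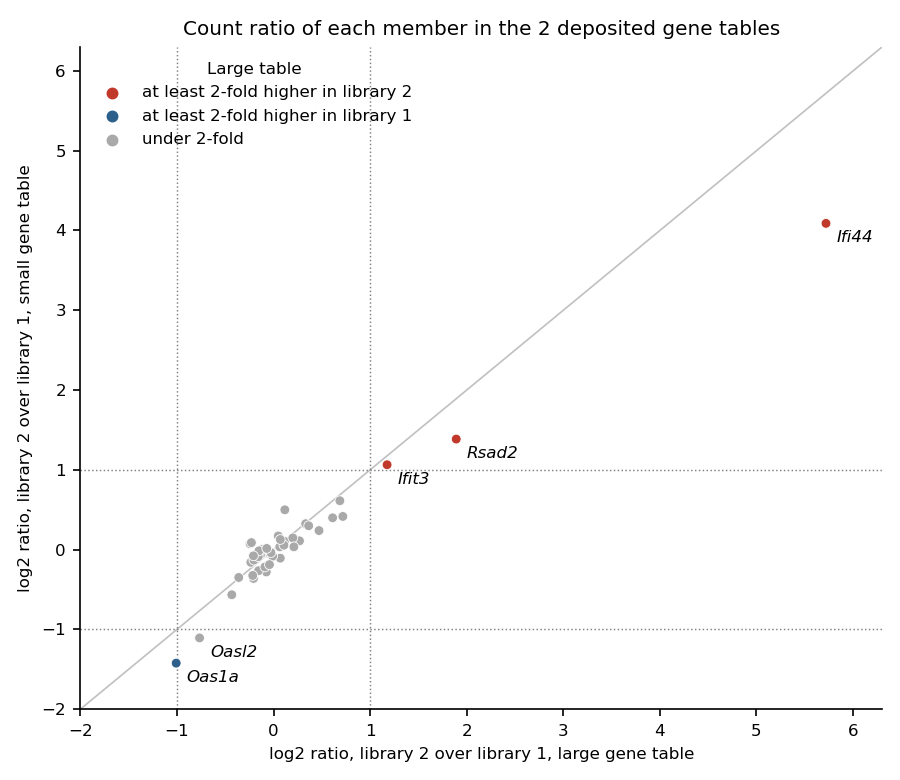
log2 ratio of library 2 over library 1 for each member in the large gene table (x axis) and in the small gene table (y axis); dotted lines mark 2-fold and the grey line marks equality. Ifi44, Rsad2 and Ifit3 lie beyond 2-fold towards library 2 on both axes and Oas1a beyond 2-fold towards library 1, while Oasl2 passes 2-fold only in the small table.

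The sensors of viral nucleic acid were all detected in both libraries. Zbp1, which binds Z-form nucleic acid and can trigger cell death, had 100.51 TPM in library 2 and 101.47 TPM in library 1, from 2145 counts in library 2 and 2840 in library 1. It was 1.1-fold higher in library 1 (interval 1.04 to 1.16, adjusted p = 0.00208 by the exact binomial test), and the small table, with 1107 counts in library 2 and 1308 in library 1, made no call. Ddx58, which encodes the RNA sensor RIG-I, had 74.50 TPM in library 2 and 79.98 in library 1. Ifih1, which encodes MDA5, the sensor of long double-stranded RNA, had 15.32 TPM in library 2 and 16.21 in library 1; its 712 counts in library 2 and 819 in library 1 gave a 1.05-fold ratio (0.948 to 1.16), and its 510 and 624 small-table counts a ratio of 0.928. Dhx58, which encodes their regulator LGP2, was the lowest sensor at 10.59 TPM in library 2 and 9.86 in library 1, from 290.54 counts in library 2 and 335.53 in library 1, with a ratio of 1.05 (0.89 to 1.23) and small-table counts of 249 in library 2 and 276 in library 1. RIG-I transcript thus stood well above that of the other RNA helicases in both libraries, and Ddx58, Ifih1 and Dhx58 were not called. With TMM and with DESeq2 size factors Ddx58 was called higher in library 1, at log2 ratios of -0.13 and -0.18.

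The 2-5A synthetase family leaned towards library 1. OAS enzymes make 2-5A, a messenger of antiviral defence, when they bind double-stranded RNA. All 5 members had a ratio under 1 in both gene tables and with TMM and DESeq2 scaling. The exact binomial test called 3 higher in library 1, Oas1a, Oas3 and Oasl2, against 23.9% of all genes tested. The summed TPM of the family was 38.4 in library 2 and 54.7 in library 1. The B cell markers, 548.1 TPM in library 2 and 601.7 TPM in library 1, and the erythroid markers lay in the same direction. Most of both B cell sums came from Ighm, whose count ratio was 0.952, and 1.06 in the small table. Cd79b was 1.53-fold higher in library 1, and 1.42-fold in the small table. The part of B cell and erythroid transcript in the ratios of this family was not tested. Oas1a had 68.2 counts and a TPM of 2.74 in library 2, against 166.4 counts and a TPM of 5.46 in library 1. It was 2.01-fold higher in library 1 (1.52 to 2.72, adjusted p = 1.44e-06), and the small table had 22 counts in library 2 and 68 in library 1. It fell short of 2-fold on TPM and with a pseudocount of 5.

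Oas1a shared 57.6% of its 50-base windows with its neighbour Oas1g, so reads there could be assigned to either gene. Oas1g had 11.25 counts in library 2 and 0 in library 1. The pair together had 79 counts in library 2 and 166 in library 1, 1.73-fold higher in library 1 (1.32 to 2.31), which is under 2-fold. Oasl2, an OAS-like gene whose mouse protein has synthetase activity, was the most abundant of the family at 15.63 TPM in library 2 and 25.10 in library 1. Its 310 counts in library 2 and 637 in library 1 made it 1.7-fold higher in library 1 (1.48 to 1.96, adjusted p = 2.54e-14), and the small table, with 151 counts in library 2 and 370 in library 1, gave 2.16-fold. Oas3, which prefers long double-stranded RNA, had 11.18 TPM in library 2 and 14.47 in library 1, 1.35-fold higher in library 1 (1.23 to 1.49). Oasl1, reported in mouse to repress translation of Irf7, had 6.35 TPM in library 2 and 7.29 in library 1 and was called higher in library 1 only with DESeq2 size factors (log2 ratio -0.35). Oas2 was the lowest, with 2.54 TPM in library 2 and 2.37 TPM in library 1 from 106 counts in library 2 and 135 in library 1, a ratio of 0.949 (0.728 to 1.23), and 55 small-table counts in library 2 and 76 in library 1. Oas1a, Oas2 and Oas3 lie in 1 stretch of chromosome 5, chr5:120730333-120907521 and Oasl1 and Oasl2 at chr5:114896936-114937915 (mm10).

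The proteins that block translation of viral RNA included a gene 2-fold or more higher in library 2. Ifit3, which stabilises the binding of IFIT1 to RNA in human cells, had 628.98 counts and 27.34 TPM in library 2, against 335.91 counts and 11.94 TPM in library 1. It was 2.26-fold higher in library 2 (1.98 to 2.59, adjusted p = 8.66e-34), and the small table had 133 counts in library 2 and 72 in library 1. Its near copy Ifit3b had 123.02 counts and 4.65 TPM in library 2 and 137.09 counts and 4.23 TPM in library 1, a ratio of 1.08 (0.842 to 1.39), with 30 small-table counts in library 2 and 24 in library 1. Of all 50-base windows, 51.2% of those of Ifit3 and 45.0% of those of Ifit3b also stood in another gene, nearly all in the other copy, and the SD that the authors' quantifier attached to the split was 11.00 counts in library 2 and 10.19 in library 1. Ifit3 held 83.6% of the counts of the pair in library 2 (95% Wilson interval 80.8 to 86.1) and 71.0% in library 1 (66.8 to 74.9). Taken as a pair, they had 752 counts in library 2 and 473 in library 1, 1.92-fold higher in library 2 (1.71 to 2.16), so the 2-fold call rested on the split while the direction did not.

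Ifit1, which binds viral RNA that lacks cap methylation, had 28.57 TPM in library 2 and 23.41 in library 1 and was 1.2-fold higher in library 2 (1.1 to 1.32), though not called with DESeq2 size factors or in the small table. Ifit2, an RNA-binding partner of it, had 24.80 TPM in library 2 and 27.53 in library 1, from 1268 counts in library 2 and 1705 in library 1. It was 1.11-fold higher in library 1 (1.04 to 1.2), with 470 small-table counts in library 2 and 641 in library 1. Eif2ak2, which encodes PKR, the kinase that halts translation by phosphorylating eIF2 alpha, had 9.19 TPM in library 2 and 5.69 in library 1 and was 1.64-fold higher in library 2 (1.42 to 1.91). The 4 Ifit genes lie together at chr19:34550694-34650009, and within this 1 cluster the ratios ran from 2.26 for Ifit3 to 0.898 for Ifit2.

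No gene of the ISG15 system differed by as much as 1.5-fold. Isg15 itself had 33.75 TPM in library 2 and 26.46 in library 1 and was 1.26-fold higher in library 2 (1.08 to 1.48, adjusted p = 0.00592), the only call in this group. The call was lost with TMM and with DESeq2 size factors and kept in the small table (1.25-fold, adjusted p = 0.031, exact binomial test). Calls towards library 1 were gained for Trim30a and Trim25 with both scalings and for Herc6 with DESeq2 size factors. Usp18, which removes ISG15 and also dampens signalling at the type I receptor, had 41.67 TPM in library 2 and 39.58 in library 1. Herc6, the main ligase that attaches ISG15 in mouse, was the lowest of the group at 20.09 TPM in library 2 and 15.91 in library 1. Its counts, 828.28 in library 2 and 1006.66 in library 1, gave a ratio of 0.993 (0.904 to 1.09) and the small one had 593 counts in library 2 and 713 in library 1. The TPM of Herc6 differed more than its counts because its effective length was 3040 bases in library 2 and 3813 in library 1. Trim25, a ubiquitin ligase that assists RIG-I signalling, had 26.57 TPM in library 2 and 25.74 in library 1. Trim30a, which restrains inflammatory signalling in mouse, was the highest at 42.72 TPM in library 2 and 41.51 in library 1, from 1932.52 counts in library 2 and 2482.76 in library 1, a ratio of 0.939 (0.885 to 0.997) that did not pass the adjusted threshold. The small table, with 643 counts in library 2 and 849 in library 1, called it 1.16-fold higher in library 1 (adjusted p = 0.00896, exact binomial test).

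The antiviral and antimicrobial GTPases differed in level by family. The Mx genes, dynamin-like GTPases that block virus entry or replication, were barely expressed. Mx1 had 129.8 counts and 5.01 TPM in library 2 and 97.27 counts and 2.18 TPM in library 1, 1.61-fold higher in library 2 by counts (1.23 to 2.13, adjusted p = 0.000729) but not called in the small table, where 50 counts in library 2 and 37 in library 1 gave 1.53-fold (adjusted p = 0.0899, exact binomial test). Mx2, which this annotation lists as a polymorphic pseudogene, was the lowest of the group at 3.50 TPM in library 2 and 2.31 in library 1. Its 104.2 counts in library 2 and 90.73 in library 1 gave 1.38-fold (1.03 to 1.85), a call lost with both scalings and in the small table, which had 79 counts in library 2 and 76 in library 1.

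The immunity-related GTPases, which attack the vacuoles of intracellular microbes, were far more abundant than the Mx genes. Ifi47 had 7625.66 counts in library 2 and 10901.92 in library 1 and was 1.18-fold higher in library 1 (1.15 to 1.22) in the large table, but in the small table its 2254 counts in library 2 and 2431 in library 1 gave a ratio of 1.05, in the other direction. Irgm2, a regulator of the other immunity-related GTPases, had 39.76 TPM in library 2 and 25.69 in library 1 and was 1.53-fold higher in library 2 (1.43 to 1.64, adjusted p = 1.53e-32). Iigp1, an effector that coats such vacuoles, had 62.02 TPM in library 2 and 72.23 in library 1 and was 1.18-fold higher in library 1 (1.11 to 1.25), though not called in the small table. These 3 genes respond to interferon gamma in particular. Ifng itself had 23.38 TPM in library 2 and 13.26 in library 1, 1.74-fold higher in library 2 by counts (1.48 to 2.05). The small table, with 154 counts in library 2 and 124 in library 1, gave 1.41-fold. NK cells are a known source of Ifng. The NK cell markers summed to 314.4 TPM in library 2 and 191.6 TPM in library 1, mostly from Nkg7 and Klrk1, while Klrb1c was not called. The part of NK cell transcript in the Ifng ratio was not tested.

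Among the nucleotide enzymes and the factors that act at membranes, Rsad2 stood apart. It encodes viperin, which makes a chain-terminating nucleotide. Rsad2 had 253 counts and 5.07 TPM in library 2 and 82 counts and 1.72 TPM in library 1. It was 3.71-fold higher in library 2 (2.89 to 4.84, adjusted p = 6.3e-28), and the small table had 72 counts in library 2 and 31 in library 1. Cmpk2, the gene next to it, which encodes a mitochondrial nucleotide kinase, had 16.50 TPM in library 2 and 12.79 in library 1 from 573 counts in library 2 and 669 in library 1, a ratio of 1.03 (0.923 to 1.16). The neighbours lie at chr12:26442746-26456452 (Rsad2) and chr12:26469204-26479837 (Cmpk2), on opposite strands, and the intervals of their ratios did not overlap.

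Bst2, or tetherin, which holds budding virus particles at the cell surface, was the most abundant of this group at 99.10 TPM in library 2 and 105.33 in library 1. Its 974 counts in library 2 and 1278 in library 1 gave a ratio of 0.92 (0.845 to 1), not called. With TMM and with DESeq2 size factors it was called higher in library 1, at log2 ratios of -0.22 and -0.27, while the small table, with 488 counts in library 2 and 554 in library 1, gave a log2 ratio of -0.001. Samd9l, a restriction factor that limits translation, had 74.17 TPM in library 2 and 71.84 in library 1, and Rtp4, a zinc-finger protein that dampens type I interferon responses in mouse, had 64.15 TPM in library 2 and 54.66 in library 1. Both were called higher in library 2, by 1.08-fold (1.03 to 1.13) and 1.15-fold (1.05 to 1.26), and both calls were lost with TMM, with DESeq2 size factors, where the sign of Samd9l turned, and in the small table. Isg20, an RNA exonuclease, had 55.65 TPM in library 2 and 65.30 in library 1 and was 1.15-fold higher in library 1 (1.04 to 1.28), which the small table did not call.

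Parp9, Parp14 and Dtx3l, which encode ADP-ribosyl transferases and a ubiquitin ligase that works as a dimer with PARP9, were expressed at similar levels. Parp9 was the highest at 69.31 TPM in library 2 and 51.73 in library 1, and its 2658.82 counts in library 2 and 2494.06 in library 1 made it 1.29-fold higher in library 2 (1.22 to 1.36, adjusted p = 1.69e-18), with 1777 small-table counts in library 2 and 1640 in library 1. Dtx3l was the lowest at 38.31 TPM in library 2 and 45.81 in library 1, and its 2701.18 counts in library 2 and 3786.94 in library 1 made it 1.16-fold higher in library 1 (1.11 to 1.22), with 1033 small-table counts in library 2 and 1468 in library 1. The partners thus differed in direction in both tables. They start next to each other on opposite strands, Parp9 at chr16:35938470-35972605 and Dtx3l at chr16:35926511-35939151, and their annotated ends overlap. Their summed counts, 5360 in library 2 and 6281 in library 1, gave a ratio of 1.03 (0.993 to 1.07). Parp14 had 47.68 TPM in library 2 and 59.82 in library 1 and was 1.28-fold higher in library 1 (1.23 to 1.34).

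The HIN-200 family, nuclear and cytoplasmic DNA-binding proteins, held 2 of the 5 most abundant members. Mndal had 289.55 TPM in library 2 and 281.60 in library 1 from 5271.2 counts in library 2 and 6065.15 in library 1, a ratio of 1.05 (1.01 to 1.09) whose sign turned with TMM and with DESeq2 size factors; the small table had 1760 counts in library 2 and 1830 in library 1. Ifi203 had 238.98 TPM in library 2 and 249.75 in library 1 from 4412.88 counts in library 2 and 5946.46 in library 1, 1.12-fold higher in library 1 (1.07 to 1.16), with 1240 small-table counts in library 2 and 1497 in library 1 and no call there. Both overlap on the minus strand, Mndal at chr1:173849126-173942491 and Ifi203 at chr1:173920407-173942672. Mndal shared 19.6% of its 50-base windows with other genes and Ifi203 12.4%. Their summed counts gave a ratio of 0.973 (0.947 to 0.999). Ifi204, a DNA sensor and a gene of macrophages and other myeloid cells, was near the limit of detection at 1.16 TPM in library 2 and 0.93 in library 1, from 33.16 counts in library 2 and 34.61 in library 1, and shared 20.0% of its windows.

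The other induced genes ranged from the most to the least abundant member. Ifi27l2a had 2300.96 counts in library 2 and 3256.99 in library 1, 1.17-fold higher in library 1 (1.11 to 1.24), but its 440 small-table counts in library 2 and 470 in library 1 gave a ratio of 1.06 in the other direction. Ifi27, its neighbour on chromosome 12, had 271.79 TPM in library 2 and 300.69 in library 1 and was 1.11-fold higher in library 1 (1.05 to 1.17), not called in the small table. Ifi35, a leucine zipper protein, had 134.74 TPM in library 2 and 138.53 in library 1 from 2117.43 counts in library 2 and 2684.58 in library 1, a ratio of 0.952 (0.898 to 1.01), and its 1132 and 1272 small-table counts gave 1.01; it was called higher in library 1 with TMM (log2 ratio -0.17) and with DESeq2 size factors (-0.22). Epsti1 had 91.46 TPM in library 2 and 103.84 in library 1 and was 1.16-fold higher in library 1 (1.09 to 1.22), a call not made in the small table. Xaf1, an antagonist of the caspase inhibitor XIAP, was the lowest detected of this group at 52.53 TPM in library 2 and 56.92 in library 1, from 563 counts in library 2 and 700 in library 1, a ratio of 0.971 (0.867 to 1.09), with 391 small-table counts in library 2 and 506 in library 1, and called higher in library 1 only with DESeq2 size factors (log2 ratio -0.19).

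Ifi44, a cytoplasmic protein with antiviral activity, had the widest difference of all members. It had 65 counts and a TPM of 1.37 in library 2 and 1 count and a TPM of 0.02 in library 1, a ratio of 52.7 with a counting interval of 13.6 to 3145. The small table had 22 counts in library 2 and 1 in library 1. It shared no 50-base window with another gene. In library 2, 78.6% of its TPM was assigned to Ifi44-203, a transcript annotated as a retained intron.

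The 3 members that were 2-fold or more higher in library 2 were higher in the library that also held more macrophage transcript. Of the 9 macrophage markers, 8 were 2-fold or more higher in library 2, against 33.0% of all genes tested. None was so in library 1, and Fcgr1 was at 0 counts in both. C1qc, a complement subunit of macrophages, had 223 counts in library 2 and 0 in library 1, and Csf1r, the receptor for the macrophage growth factor, had 491.52 counts in library 2 and 12.03 in library 1. Of the 6 monocyte and neutrophil markers, Ly6c2 was 2-fold or more higher in library 2 and Lyz2, Itgam and S100a9 in library 1. Lyz2 had 64 counts in library 2 and 500 in library 1. Among the 6 conventional dendritic cell markers, Cd209a was 2-fold or more higher in library 2 and none in library 1 in the large table. The small table differed: Zbtb46, Flt3 and Xcr1 were higher in library 1 there, by 4.83-fold, 12.2-fold and 11.7-fold. Cd209a stayed higher in library 2, with 19 counts in library 2 and 0 in library 1. Small-table counts of the 6 markers summed to 37 in library 2 and 164 in library 1. The part of macrophage or other myeloid transcript in the ratios of Ifi44, Ifit3 and Rsad2 was not tested. All 6 erythroid markers were 2-fold or more higher in library 1, against 9.43% of all genes tested, and their part in the ratio of Oas1a was not tested. The 6 markers of plasmacytoid dendritic cells, which secrete type I interferon, summed to 126.6 TPM in library 2 and 126.9 TPM in library 1. Bst2, itself a member, supplied most of both sums, at 99.10 TPM in library 2 and 105.33 in library 1. The likeness of the sums therefore does not describe the other markers. Of the 6, 2 were called higher in library 2 (against 46.4% of all genes tested) and 2 in library 1 (against 23.9%). Tcf4 was 2.38-fold higher in library 2 and Siglech 2.73-fold higher in library 1.

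The other genes of the interferon pathway framed these levels. Of 18 type I interferon genes, 5 had counts over 0 in library 2 and 2 in library 1. The 13 interferon alpha genes summed to 23.00 counts in library 2, from 4 genes, and to 0.00 in library 1, with 19 small-table counts in library 2 and 0 in library 1. Among them Ifna15 had 13.59 counts and 1.91 TPM in library 2 and 0 counts in library 1. The exact binomial test called it higher in library 2 (adjusted p = 3.66e-05), also in the small table, with 10 counts in library 2 and 0 in library 1 (adjusted p = 0.00139). Ifnb1, interferon beta, had 10 counts in library 2 and 5 in library 1, and was not called. The interferon lambda genes Ifnl2 and Ifnl3 summed to 7.00 counts in library 2 and 0.00 in library 1. Ifnz stood at 0 counts in library 2 and 52.54 in library 1 in the large table, but at 0 in both libraries in the small table. Ligand transcript of type I and type III was therefore at a trace level in both libraries, and interferon gamma was the only ligand detected.

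The receptors for type I interferon and interferon gamma were all detected. Ifnar1 had 77.93 TPM in library 2 and 71.63 in library 1, Ifnar2 75.65 in library 2 and 88.17 in library 1, and Ifngr1 147.60 in library 2 and 117.41 in library 1. Ifnlr1, the receptor chain for interferon lambda, was not detected, with 22 counts in library 2 and 0 in library 1. The exact binomial test called 4 of the 6 receptor chains higher in library 2 and 2 higher in library 1. Of all genes tested, 46.4% were called higher in library 2 and 23.9% in library 1. All 9 signal transducers were detected, and 5 were called higher in library 2 and 2 in library 1 by the exact binomial test. Stat2 had 57.67 TPM in library 2 and 41.78 in library 1, 1.22-fold higher in library 2 (1.16 to 1.29), and Irf9 121.51 in library 2 and 103.91 in library 1, 1.17-fold higher in library 2 (1.12 to 1.23). Of these 9, Irf7, itself induced by interferon, was the 1 gene 2-fold or more higher in library 2. It had 2751 counts in library 2 and 1647 in library 1 (2.02-fold, 1.9 to 2.14). The small table, with 1492 counts in library 2 and 1045 in library 1, gave 1.62-fold. Of all genes tested, 33.0% were 2-fold or more higher in library 2, and 9.04% of those with 100 or more counts.

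Of 6 feedback inhibitors, 2 were called higher in library 2 (against 46.4% of all genes tested) and 3 in library 1 (against 23.9%). None reached 2-fold. Socs3 had 84.66 TPM in library 2 and 127.48 in library 1, 1.49-fold higher in library 1 (1.43 to 1.57), and Socs1 70.75 TPM in library 2 and 57.12 in library 1, 1.23-fold higher in library 2 (1.16 to 1.29). Of 8 sensor adaptors and kinases, 3 were called higher in each direction, against the same shares of all genes tested. Mavs, the mitochondrial adaptor of RIG-I and MDA5, was the 1 gene past 2-fold in the large table, with 524 counts and 13.61 TPM in library 2 and 1735 counts and 36.85 TPM in library 1, 2.74-fold higher in library 1 (2.49 to 3.03), and 253 small-table counts in library 2 and 749 in library 1. Its sensors Ddx58 and Ifih1 were not called on library totals. Past 2-fold towards library 1 stood 9.43% of all genes tested, and 5.04% of those with 100 or more counts. Cgas, the cytoplasmic DNA sensor, had 8.92 TPM in library 2 and 4.63 in library 1, 1.83-fold higher in library 2 (1.57 to 2.14), and its 198 small-table counts in library 2 and 101 in library 1 gave 2.22-fold.

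The leading transcript was the same in both libraries for most members. Of the 34 detected members with several annotated transcripts, 31 had the same leader, the transcript with the highest TPM of its gene (91.2%), against 81.3% of 9954 detected protein-coding genes. Over the 40 detected members the median share of TPM in protein-coding transcripts was 88.4%, against 81.4% in 10818 detected protein-coding genes, and 5 members (12.5%, against 21.4%) had under 50% in a library. Short reads assign transcripts with much uncertainty, so these shares are estimates of the authors' quantifier.

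The 10 most abundant members fell into single-transcript and mixed genes. Ifi27l2a has 1 annotated transcript. Ifi47 was led by the coding Ifi47-201, with 94.98% of its TPM in library 2 and 95.10% in library 1. Epsti1-201 held 96.0% of Epsti1 in library 2 and 97.2% in library 1, and Bst2-201 held 95.1% of Bst2 in library 2 and 96.9% in library 1. Zbp1 was divided between the coding Zbp1-201, with 55.6% in library 2 and 58.1% in library 1, and the shorter coding Zbp1-202, with 37.6% in library 2 and 31.8% in library 1.

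The other 5 were divided among more transcripts. Ifi35-201, coding, held 52.3% of Ifi35 in library 2 and 55.2% in library 1, and Ifi35-203, annotated as a target of nonsense-mediated decay, held 39.0% in library 2 and 36.5% in library 1. Ddx58-201, its longest coding transcript, held 45.1% of Ddx58 in library 2 and 39.5% in library 1, and most of the rest lay in transcripts with no coding sequence. Ifi27 was led by Ifi27-209, a retained intron, with 40.8% in library 2 and 45.4% in library 1. Ifi203 was led by Ifi203-208, a short processed transcript, with 53.2% in library 2 and 55.6% in library 1, and only 16.6% of its TPM in library 2 and 17.1% in library 1 was in coding transcripts. By expected count in place of TPM, Ifi203-207 led in both libraries. Mndal was led by Mndal-201 in library 2 (38.3%) and by Mndal-208 in library 1 (32.0%), both coding.

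Mx1 and Trim25 also changed leader. Mx1 was led in library 2 by the coding Mx1-202 with 49.1% and in library 1 by Mx1-205, a target of nonsense-mediated decay, with 85.5%; Mx1-202 had 88.3 counts in library 2 and 0 in library 1. The mean effective length of Mx1 was therefore 1909 bases in library 2 and 2692 in library 1, and its TPM ratio, 2.3, exceeded its count ratio, 1.61. Trim25 was divided almost evenly between Trim25-202, with 51.3% in library 2 and 48.1% in library 1, and Trim25-203, with 48.7% in library 2 and 51.9% in library 1, and by expected count Trim25-203 led in both. Oasl2 was led in both libraries by Oasl2-205, a target of nonsense-mediated decay, with 44.5% in library 2 and 44.3% in library 1, and its coding transcripts held 4.4% of its TPM in library 2 and 11.2% in library 1.

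**Figure D4:**
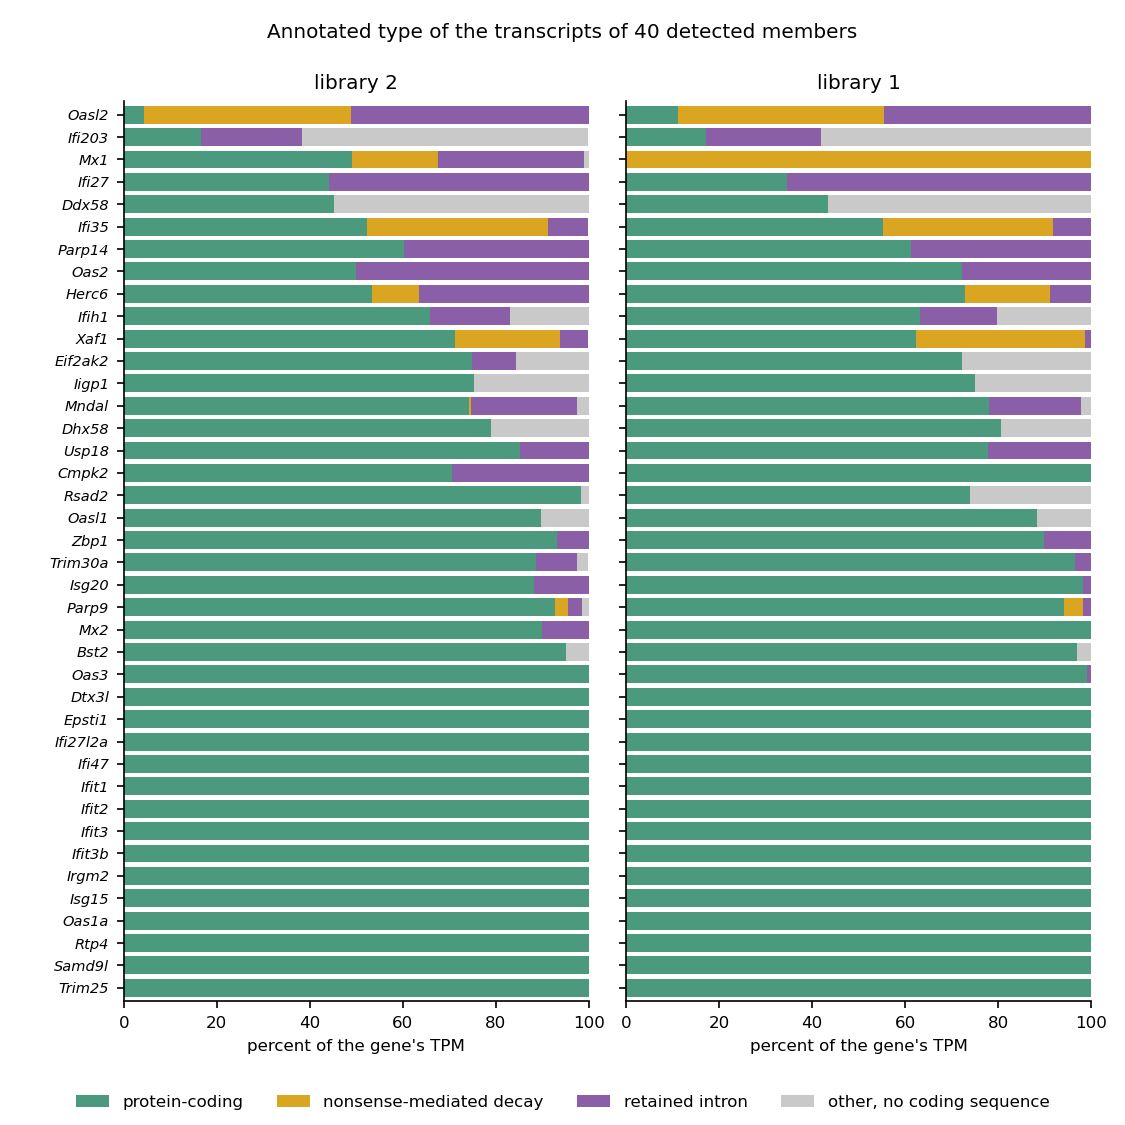
Percent of each detected member's TPM (x axis) in transcripts of each annotated type, for library 2 (left) and library 1 (right), with members ordered by their coding share. Oasl2, Ifi203, Mx1, Ifi27 and Ddx58 have under 50% in coding transcripts in a library; the polymorphic pseudogene type of Mx2 is drawn as coding.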

How the data were processed

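The 2 technical libraries of 1 biosample were analysed. The large gene and transcript tables give each feature an expected count, a TPM and an FPKM value, which the authors made from a transcriptome alignment (mm10, GENCODE M21), per the deposited description, and the deposited transcript tables give each transcript's percent of its gene. The deposited posterior SD of a count measures how unsure the split of shared reads is. The small tables hold whole-number counts that the authors derived with GENCODE M4. The aligner, quantifier, strand use and treatment of duplicates are, in the sources used here, not given, so overlapping and antisense genes are uncertain, and PCR copies are not independent molecules.

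The 42 members and all lists were chosen with earlier results of these data known. Every member is named. Full counts are given for members past 2-fold, those whose sign turned in the small table, and the highest and lowest detected of each role group. Other genes named were picked from their lists after their values were seen.

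Expected counts were rounded for the exact binomial test (2-sided, scipy 1.17.1, Python 3.11.15), run on the 24253 genes with 10 or more counts summed. In counts drawn with known answers for 55536 genes it recovered 99 of 100 doubled and 92 of 100 halved genes and called 16 unchanged ones. Those draws held counting error only, and the changed genes had 100 or more counts. The draws therefore do not give the error rate of the test in these libraries. Ratios used a pseudocount of 0.5. TMM factors came from edgeR 4.0.16 and size factors from DESeq2 1.42.0 (R 4.3.3). Promoter windows came from RefSeq (GRCm38.p6) and were aligned with Biopython 1.88. Shared windows were exact 50-base matches between GENCODE M21 transcripts of different genes. The 50 bases stand for the read length, because effective length was 49 below length in the large tables. No protein identity was computed. Results for 2 pathway genes are not reported here. No replicate animals exist in these data, so no test measures biological spread.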

Additional observations from a re-analysis of the deposited data

How the results depend on the processing

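The number of detected members was 42 in library 2 alone and 40 in library 1 alone. Of all 55536 genes, 19186 were detected in library 2 alone and 15359 in library 1 alone, so library 2 held more detected genes in general. Members 2-fold or more higher in library 2 stayed at 3 with both scalings and in the small table, and numbered 6 at a 1.5-fold threshold. Those higher in library 1, 1 gene, numbered 2 in the small table and at 1.5-fold, and 0 with a pseudocount of 5 or on TPM. Ratios under 1.5-fold in either direction were held by 81.0% of the members. They were held by 46.3% of all genes tested and 73.7% of those with 100 or more counts. Members the exact binomial test called higher in library 2, 13 in all, numbered 8 with TMM, 7 with DESeq2 size factors and 8 in the small table. Those called higher in library 1, 14 in all, numbered 23 with DESeq2 size factors and 7 in the small table. Of the 27 calls in all, 22 were shared with TMM and 14 of the 15 calls of the small table were shared. Among members called by the exact binomial test, signs turned for Ifi47 (log2 ratio 0.073) and Ifi27l2a (0.087) in the small table, for Samd9l (-0.038) with DESeq2 size factors, and for Mndal with TMM (-0.028) and DESeq2 size factors (-0.076). Signs of uncalled members turned for Ifih1, Dhx58 and Cmpk2 with both scalings, for Ifit3b and Usp18 with DESeq2 size factors, and for Ifih1 and Ifi35 in the small table. The cause was not tested. Low counts limit the ratios of Ifi44, Ifi204, Mx1, Mx2, Ifit3b, Oas1a and Oas2. No paired analysis was possible because the labels give 1 group only.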
